A study of Mus musculus with 2 samples.

Results

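Collagens are extracellular matrix proteins built from 3 alpha chains wound into a triple helix. The genes described here are the 38 collagen chain genes other than type IV, taken as every gene symbol of the feature list made of Col, a number, the letter a and a number, without the 6 type IV chains of the basement membrane. They are 38 of 31058 features. The cells came from glomeruli, the filtering units of the kidney, of 2 healthy C57Bl/6 mice, 1 titled female and 1 titled male, with 1 droplet 3' library of unique molecular identifiers (UMIs) from each. Both mice had the genotype Pax2.rtTA;TetO.Cre;R26.Confetti, in which doxycycline lets a Pax2-driven activator switch on Cre and thereby a fluorescent reporter; both received doxycycline at 19 days of age and were killed at 30 days, so there was no mouse without the transgenes or the drug. Sex-linked transcripts went against the titles (Xist at 0.682 CPM in the library titled female and 1593 CPM in the other, summed Y-linked genes at 214 and 0.0206 CPM), so the libraries are called the library labelled female and the library labelled male, and values are given in that order.

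The libraries held 5233 and 4974 barcodes, of which 4909 and 4442 passed the filters on genes and mitochondrial share, with medians of 10672 and 9616 UMIs per cell. The 2 libraries shared 10 barcodes. Cells were grouped with every collagen gene left out of the clustering, and groups were named from other genes: podocyte-like (3671 and 3186 cells), parietal epithelial-like (224 and 170), mesangial-like (241 and 175), smooth muscle or renin-like (43 and 62), glomerular endothelial-like (131 and 105), arterial endothelial-like (66 and 67) and thick ascending limb-like (61 and 91). Proximal tubule-like cells (10 and 22) were too few for the comparisons. No cluster was named fibroblast-like. Of the 10 fibroblast markers 3 were at 20 CPM or more in mesangial-like cells in each library, among them Pdgfra at 114 and 127 CPM and Dcn at 46.0 and 51.1 CPM. There 3 and 6 of the 10 had no UMI, Dpt had none in either library and Lum had 1 UMI. The list summed to 517 and 431 CPM in mesangial-like cells. It summed higher in podocyte-like (786 and 781 CPM), parietal epithelial-like (723 and 760), glomerular endothelial-like (896 and 833) and arterial endothelial-like cells (559 and 552). These sums came from few markers. In podocyte-like and parietal epithelial-like cells 1 of the 10 was at 20 CPM or more in each library. The counts were 3 and 2 in glomerular endothelial-like and 2 and 2 in arterial endothelial-like cells. Of the named classes, only smooth muscle or renin-like and tubule cells had lower sums than mesangial-like cells. The part of fibroblast transcripts in the mesangial-like collagen levels was not tested.

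Collagen families differ in what they build. Fibrillar collagens (types I, III and V here) make the cross-banded fibrils of interstitial tissue, and fibril-associated collagens such as type XII decorate them; type VI makes beaded filaments from 3 different chains, type VIII makes short-chain networks, and the multiplexins XV and XVIII carry sugar chains and sit at basement membranes. In the healthy glomerulus the podocyte and the capillary endothelium share a basement membrane of type IV collagen, the mesangium holds the capillary loops together, and fibrillar collagen is mainly known from scarring.

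The upstream sequences of 4 members are shown first because the results turn on chains of 1 protein that were found in different cell classes: the 3 chains of type VI collagen, and Col1a2, which was present in podocyte-like cells, where its partner chain Col1a1 had 12 and 2 UMIs. Each is the 250 bases before the start of the RefSeq transcript (build GRCm38.p6), 5' to 3' on the gene's own strand. Capitals mark every match, on either strand, to 3 short promoter motifs. The TATA box was searched as TATAAA. The CCAAT box was searched by the letters of its name. The GC box was searched as GGGCGG, and no match overlapped another.
Col6a1: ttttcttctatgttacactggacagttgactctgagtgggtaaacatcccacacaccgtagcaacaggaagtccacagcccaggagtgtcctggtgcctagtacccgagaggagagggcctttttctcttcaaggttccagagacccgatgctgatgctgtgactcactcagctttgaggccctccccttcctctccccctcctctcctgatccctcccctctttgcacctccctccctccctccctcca
Col6a2: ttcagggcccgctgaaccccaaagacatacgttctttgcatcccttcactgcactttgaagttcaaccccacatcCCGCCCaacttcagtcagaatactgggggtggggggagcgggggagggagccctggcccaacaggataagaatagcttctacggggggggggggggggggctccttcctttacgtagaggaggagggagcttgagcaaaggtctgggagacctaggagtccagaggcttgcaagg
Col6a3: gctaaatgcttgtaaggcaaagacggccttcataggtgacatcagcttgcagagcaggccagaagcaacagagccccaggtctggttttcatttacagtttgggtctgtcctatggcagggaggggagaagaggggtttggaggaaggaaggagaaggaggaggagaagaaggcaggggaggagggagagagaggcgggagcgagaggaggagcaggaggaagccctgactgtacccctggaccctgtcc
Col1a2: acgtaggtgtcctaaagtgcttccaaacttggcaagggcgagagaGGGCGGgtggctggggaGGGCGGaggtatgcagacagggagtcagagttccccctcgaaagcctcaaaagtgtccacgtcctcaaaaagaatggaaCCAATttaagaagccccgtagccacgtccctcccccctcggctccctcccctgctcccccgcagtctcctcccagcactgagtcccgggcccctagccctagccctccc
The windows lie at chr10:76726045-76726294, chr10:76623631-76623880 and chr1:90843972-90844221 (all on the minus strand) and at chr6:4505368-4505617 (plus strand). By the gene ends of GENCODE M21 the Col1a2 window lies inside the gene, and the Col6a1 window overlaps the gene's start. For Col6a2, 2 transcript starts were listed, and the window of 1 is shown. Col6a1 and Col6a3 had no match to the 3 motifs, Col6a2 had 1 GC box, and Col1a2 had 2 GC boxes and 1 CCAAT box that lay 104 bases before the start. Of 32851 windows of this length in the table, 12.4% held TATAAA, 33.8% held CCAAT and 32.7% held GGGCGG. Col6a1 and Col6a2 are neighbours on chromosome 10 on the same strand, with 85.2 kb between the gene ends (GENCODE M21), while Col6a3 is on chromosome 1. Col3a1 and Col5a2 are neighbours on chromosome 1, 24.6 kb apart and on opposite strands.

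Levels are counts per 1000000 UMIs (CPM), the UMIs of a gene scaled to the UMIs summed over all cells of a class in a library; they compare 1 gene between classes and not different genes with each other. A member was called present in a class at 20 CPM or more in both libraries. By this rule 11 of the 38 members were present somewhere: Col1a2, Col3a1, Col5a1 and Col5a2 among the fibrillar chains, the fibril-associated Col12a1, the type VI chains Col6a1, Col6a2 and Col6a3, the short-chain Col8a1, and the multiplexins Col15a1 and Col18a1. Mesangial-like and smooth muscle or renin-like cells each had 8 members present, and these were the same 8 genes (Col1a2, Col3a1, Col5a1, Col5a2, Col12a1, Col6a3, Col8a1 and Col18a1). Parietal epithelial-like cells had 4 (Col1a2, Col6a1, Col6a2 and Col18a1), glomerular endothelial-like cells 4 (Col1a2, Col5a2, Col15a1 and Col18a1), thick ascending limb-like cells 3 (Col1a2, Col5a2 and Col18a1), podocyte-like cells 2 (Col1a2 and Col18a1) and arterial endothelial-like cells 2 (Col5a2 and Col18a1). Over all 31058 features the same rule held for 19.0% in podocyte-like, 21.1% in parietal epithelial-like, 20.2% in mesangial-like, 18.4% in smooth muscle or renin-like, 20.2% in glomerular endothelial-like, 18.6% in arterial endothelial-like and 19.8% in thick ascending limb-like cells; the 8 of 38 members in the mesangial-like and smooth muscle or renin-like classes are 21.1% of the members, near that background.

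**Figure D1:**
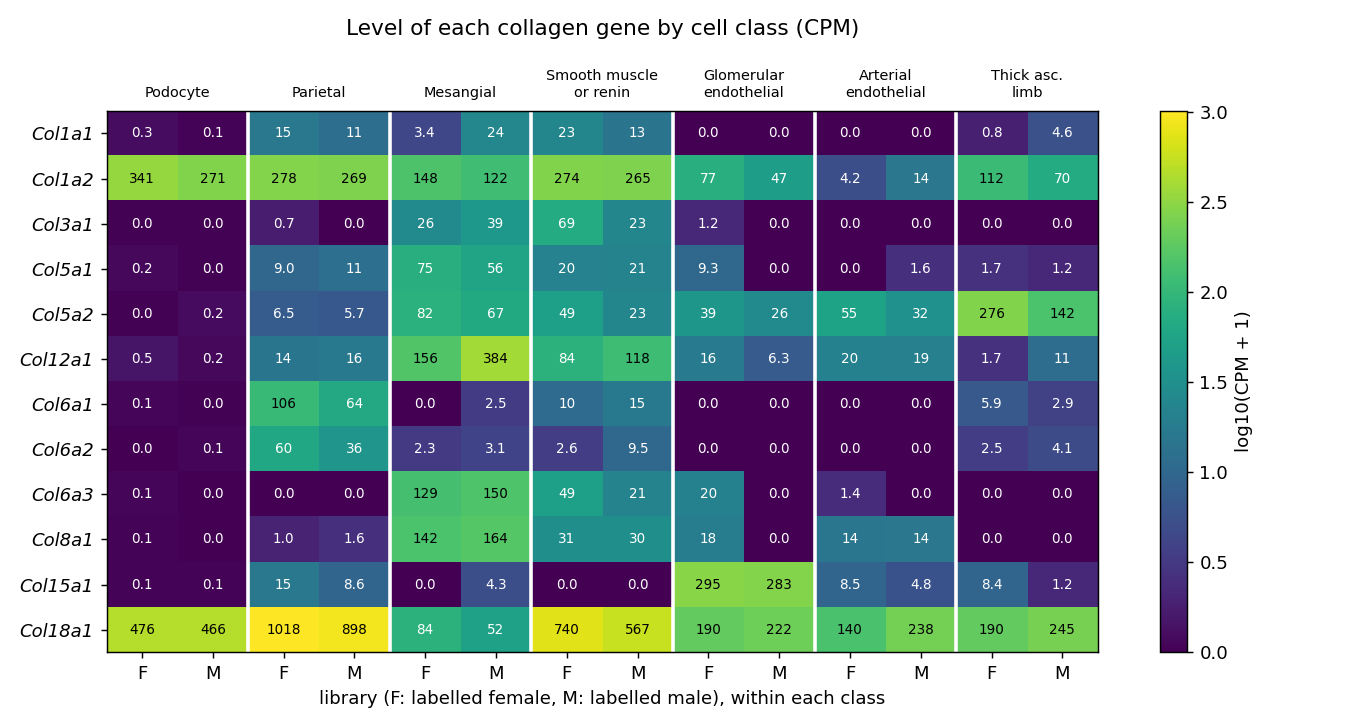
Level of the 11 present members and Col1a1 (rows) in the 7 classes and 2 libraries (columns; F is the library labelled female, M the library labelled male); numbers are CPM, colour is log10(CPM + 1), and 0.0 stands for levels under 0.05 CPM. Col18a1 was at 52.3 CPM or more in all 14 sums, whereas Col6a1 and Col6a2 reached 20 CPM only in parietal epithelial-like cells and Col15a1 only in glomerular endothelial-like cells.

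Of the other 27 members, Col2a1 and Col9a1 had no UMI in any kept cell, and 15 of the 38 members, these 2 included, had fewer than 20 UMIs in all. The closest to the limit was Col26a1, at 23.0 and 19.1 CPM in mesangial-like cells. Col1a1 was at 23.0 and 13.3 CPM in smooth muscle or renin-like cells and Col13a1, a transmembrane collagen, at 5.12 and 70.5 CPM there. Just inside the limit was Col5a1 in smooth muscle or renin-like cells (20.5 and 20.9 CPM). In the library labelled male Col6a3, Col3a1 and Col5a2 were also near it in that class. They were at 20.9, 22.9 and 22.9 CPM there, from 11, 12 and 12 UMIs. These members around the limit were picked out after their values were seen.

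The type I chains had different profiles over the classes. Type I collagen is made of 2 chains of COL1A1 and 1 of COL1A2, the products of Col1a1 and Col1a2. Col1a2 (chromosome 6, bases 4504814 to 4541544 on GRCm38) was at 341 and 271 CPM in podocyte-like cells, from 15775 and 9626 UMIs, and in the 6 larger of the 7 podocyte-like clusters (the other held 4 and 7 cells and was not described singly) it lay between 291 and 405 CPM in the library labelled female and between 237 and 351 CPM in the library labelled male. Its UMIs were spread over the cells: the 5 podocyte-like cells with the most held 1.03% and 1.42% of them. Col1a1 in the same cells was at 0.259 and 0.0564 CPM. In 3060 and 2521 podocyte-like cells a Col1a2 UMI was found without a Col1a1 UMI, in 8 and 2 cells both were found, and in 3 and 0 cells Col1a1 alone.

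Across classes Col1a2 was similar in podocyte-like, parietal epithelial-like (278 and 269 CPM) and smooth muscle or renin-like cells (274 and 265 CPM), where the ranges over the 2 libraries overlapped from each class to the next. Below these came mesangial-like cells (148 and 122 CPM), thick ascending limb-like cells (112 and 70.3 CPM), glomerular endothelial-like cells (77.1 and 46.9 CPM) and arterial endothelial-like cells (4.25 and 14.4 CPM), with overlap only between the thick ascending limb-like and glomerular endothelial-like values. The parietal epithelial-like level joins 2 unlike sets, described below. At resolution 2.0, Col1a2 was at 46.4 and 81.7 CPM in the cells that kept the name. It was at 489 and 406 CPM in an unnamed set led by Cst12. Podocyte transcripts were also counted in the other classes, and the size of that signal was set beside Col1a2. As a percentage of the podocyte-like level, the summed 10 podocyte markers were at 31.9% and 34.7% in parietal epithelial-like cells, 17.3% and 12.7% in smooth muscle or renin-like cells, 16.3% and 7.47% in mesangial-like, 22.2% and 21.3% in thick ascending limb-like, 20.4% and 25.2% in glomerular endothelial-like and 8.96% and 10.1% in arterial endothelial-like cells, and no marker of the list was at 0 in these classes. Col1a2 on the same scale was at 81.6% and 99.1% in parietal epithelial-like cells, 80.4% and 97.6% in smooth muscle or renin-like cells and 43.4% and 45.1% in mesangial-like cells, above the marker signal of each class in both libraries. It was at 33.0% and 25.9% in thick ascending limb-like cells and at 22.6% and 17.3% in glomerular endothelial-like cells, close to the marker signal, and at 1.25% and 5.31% in arterial endothelial-like cells, below it.

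In the classes near the marker signal, Col1a2 was held by few cells and its level changed when cells were filtered differently. In glomerular endothelial-like cells 5 cells held 57.6% and 66.7% of its UMIs. With the top 5% of doublet scores removed Col1a2 was at 4.03 and 3.06 CPM in that class. In thick ascending limb-like cells, with a mitochondrial limit of 50%, Col1a2 was at 32.5 and 12.9 CPM. In a cluster of 20 and 58 cells led by leukocyte genes, Col1a2 was at 108 and 36.1 CPM, from 4 and 3 cells. The part of podocyte transcripts in these Col1a2 levels was not tested.

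**Figure D2:**
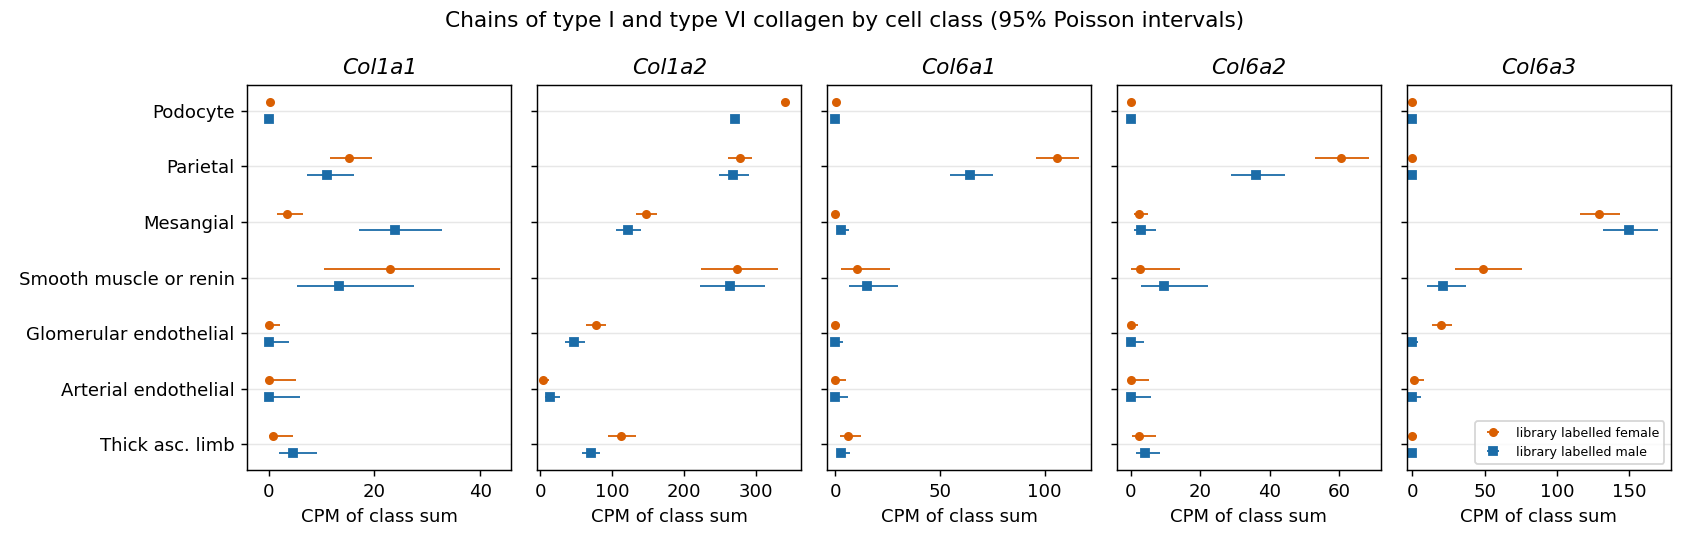
CPM of the 2 type I and 3 type VI chain genes in each class (circles, library labelled female; squares, library labelled male; bars are 95% Poisson intervals of the summed UMIs, which cover counting error only), each panel with its own linear axis. Col1a2 was at 341 and 271 CPM in podocyte-like cells where Col1a1 was at 0.259 and 0.0564, and Col6a3 peaked in mesangial-like cells, at 129 and 150 CPM, where Col6a1 was at 0 and 2.46.

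Of the other fibrillar chains, Col3a1, the chain of type III collagen found in pliable tissue such as vessel walls, was confined among the 7 classes to the 2 stromal ones at the 20 CPM limit. It was at 26.4 and 39.4 CPM in mesangial-like cells and at 69.1 and 22.9 CPM in smooth muscle or renin-like cells, so the ranges overlapped. In podocyte-like cells it was at 0.0432 and 0.0282 CPM. Col5a1, a chain of type V collagen, which starts fibrils, was at 75.1 and 56.0 CPM in mesangial-like cells, 20.5 and 20.9 CPM in smooth muscle or renin-like cells and 8.96 and 11.5 CPM in parietal epithelial-like cells; the order of these 3 held in both libraries.

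Col5a2, the other main type V chain, did not follow Col5a1. Its highest level was in thick ascending limb-like cells, a tubule class outside the glomerulus, at 276 and 142 CPM, where Col5a1 was at 1.69 and 1.16 CPM. Mesangial-like cells followed at 81.8 and 67.0 CPM, then arterial endothelial-like (55.2 and 32.0), smooth muscle or renin-like (48.6 and 22.9) and glomerular endothelial-like cells (38.6 and 26.0), whose ranges overlapped. Parietal epithelial-like cells were at 6.47 and 5.75 CPM and podocyte-like cells at 0.0432 and 0.225 CPM. In the thick ascending limb-like class 23 of 61 and 26 of 91 cells held a Col5a2 UMI, and the 5 cells with the most held 64.8% and 50% of the UMIs. With each cell thinned to 3000 UMIs the shares with a Col5a2 UMI were 23.0% and 19.8% there (95% exact intervals 13.2% to 35.5% and 12.2% to 29.4%), against 0 of 3671 and 1 of 3186 podocyte-like cells, the former allowing a share of up to 0.0817%; median depths before thinning were 15621 and 17251 UMIs in the tubule class and 10991 and 10018 in podocyte-like cells. The mesangial marker list summed to 0.468% and 0.525% of its mesangial-like level in these tubule cells. At the finer clustering resolution of 2.0 the class parted into thick ascending limb-like cells, with Col5a2 at 321 and 180 CPM, and 8 and 22 distal convoluted tubule-like cells, with 0 and 46.8 CPM.

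Col12a1 encodes the type XII chain that binds along fibrils. It was at 156 and 384 CPM in mesangial-like cells, 84.5 and 118 CPM in smooth muscle or renin-like cells, 19.8 and 19.2 CPM in arterial endothelial-like cells and 13.7 and 15.6 CPM in parietal epithelial-like cells, and at 0.475 and 0.169 CPM in podocyte-like cells. The 5 cells with the most held 24.2% and 38.5% of the Col12a1 UMIs in mesangial-like cells, and 75.8% and 50% in smooth muscle or renin-like cells. At resolution 2.0, 14 of the mesangial-like cells (5 and 9 per library) joined the smooth muscle or renin-like class, and in these 14 cells Col12a1 was at 866 and 3336 CPM, Col1a1 at 138 and 371 CPM and Col3a1 at 59.0 and 524 CPM. The 402 cells that stayed mesangial-like had Col12a1 at 142 and 235 CPM, Col1a1 at 0.769 and 6.46 CPM and Col3a1 at 25.8 and 14.9 CPM. The 14 cells lay between the 2 classes in Itga8, the mesangial integrin chain, and in Acta2, smooth muscle actin. Itga8 was at 177 and 396 CPM, against 1459 and 1714 in those that stayed and 118 and 109 in the other smooth muscle or renin-like cells. Acta2 was at 610 and 856 CPM, against 86.1 and 146 in those that stayed and 5671 and 5637 in the other smooth muscle or renin-like cells. Pdgfra was at 98.4 and 141 CPM, against 114 and 126 in those that stayed and no UMI in the other smooth muscle or renin-like cells. No Dcn UMI was counted in the 14 cells. Their leading genes over the rest of the mesangial-like class, by a rule applied after the cells were seen, were Sparcl1, Enpp2, Islr, Adora1, Mgp and Col1a1, with Mgp at 9840 CPM against 377 CPM. This small set held 29 of the 39 Col1a1 UMIs counted in mesangial-like cells of the library labelled male.

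The 3 type VI chains, which assemble together into 1 filament, were counted in different classes. Parietal epithelial-like cells are named after the cells that line Bowman's capsule. At resolution 2.0, 244 of them fell in an unnamed cluster with podocyte markers, described below, and both sets held Col6a1 and Col6a2. Col6a1 (chromosome 10, bases 76708792 to 76726168) was at 106 and 64.5 CPM in the whole parietal epithelial-like class, and Col6a2 (chromosome 10, bases 76595762 to 76623630) at 60.5 and 36.1 CPM. Col6a3 (chromosome 1, bases 90765923 to 90843971) had no UMI in that class in either library, from 4019658 and 2435491 UMIs in total, which allows up to 0.746 and 1.23 CPM. In mesangial-like cells Col6a3 had its highest level, at 129 and 150 CPM, while Col6a1 was at 0 and 2.46 CPM and Col6a2 at 2.26 and 3.08 CPM, both under their parietal epithelial-like levels. Smooth muscle or renin-like cells had UMIs of all 3, with Col6a3 at 48.6 and 20.9 CPM, Col6a1 at 10.2 and 15.2 CPM and Col6a2 at 2.56 and 9.52 CPM. Both endothelial-like classes had no Col6a1 or Col6a2 UMI, and podocyte-like cells had no more than 0.113 CPM of any of the 3.

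Col6a1 and Col6a2 were found in the same parietal epithelial-like cells: 62 of 224 and 32 of 170 cells held both, 19 and 18 held Col6a1 alone, 23 and 12 held Col6a2 alone and 120 and 108 held neither. No cell held Col6a3. Thinned to 3000 UMIs, 22.3% and 16.5% of these cells held a Col6a1 UMI (36.2% and 29.4% before thinning), against 0 of 3671 and 0 of 3186 podocyte-like cells (up to 0.0817% and 0.0942%). Of mesangial-like cells 29.0% and 36.6% held a Col6a3 UMI after thinning (63.5% and 66.3% before). Median depths were 12218 and 10924 UMIs in the parietal epithelial-like and 8564 and 7369 in the mesangial-like class. The chain genes Col6a4, Col6a5 and Col6a6 had 2, 3 and 2 UMIs in all cells.

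Col8a1, a chain of the short-chain networks known from vessel walls and the corneal membrane, was at 142 and 164 CPM in mesangial-like cells, 30.7 and 30.5 CPM in smooth muscle or renin-like cells and 14.2 and 14.4 CPM in arterial endothelial-like cells. In mesangial-like cells 95 of 241 and 67 of 175 held both Col6a3 and Col8a1. Glomerular endothelial-like cells gave 17.5 CPM of Col8a1 and 19.9 CPM of Col6a3 in the library labelled female and 0 of both in the other. All 30 of those Col8a1 UMIs were in 5 cells, and the mesangial marker list summed to 11.3% and 0.999% of its mesangial-like level in the same class, with Pdgfrb at 133 and 12.5 CPM and 8 and 1 of the 10 markers at 20 CPM or more. Its part in these 2 levels was not tested.

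Of the multiplexins, Col15a1 was present in 1 class and Col18a1 in all 7. Col15a1, whose product binds basement membrane to the fibrils below it, was at 295 and 283 CPM in glomerular endothelial-like cells, and its UMIs were found in 55.7% and 54.3% of these cells after thinning (80.9% and 72.4% before) against 1 of 3671 and 1 of 3186 podocyte-like cells. The next level was 15.2 and 8.62 CPM in parietal epithelial-like cells, and arterial endothelial-like cells were at 8.49 and 4.80 CPM. The annotation places an antisense gene, Gm12426, over Col15a1, and which strand the counting used is not stated in any label or header read for it; the same holds for 4930562D21Rik over Col12a1 and Slc19a1 over Col18a1.

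Col18a1, which encodes the type XVIII chain from which endostatin is cut, was present in all 7 classes. It was highest in parietal epithelial-like cells, at 1018 and 898 CPM, followed by smooth muscle or renin-like (740 and 567) and podocyte-like cells (476 and 466), and these 3 classes did not overlap. Thick ascending limb-like (190 and 245), glomerular endothelial-like (190 and 222) and arterial endothelial-like cells (140 and 238) overlapped one another, and mesangial-like cells were lowest at 84.1 and 52.3 CPM. As a percentage of the podocyte-like level the mesangial-like values were 17.7% and 11.2%, beside 16.3% and 7.47% for the summed podocyte markers; the arterial endothelial-like values were 29.4% and 51.2% beside 8.96% and 10.1%. The part of podocyte transcripts in the mesangial-like level was not tested.

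The parietal epithelial-like class was of more than 1 kind. At resolution 2.0 it parted into 150 cells that kept the name and 244 cells of a cluster led by Cst12, Igfbp6 and Dkk3 that could not be named. The named cells (90 and 60) had Akap12 at 2518 and 2743 CPM and Nphs1, which encodes nephrin of the slit diaphragm, at 85.5 and 55.4 CPM. The Cst12-led cells (134 and 110) had Akap12 at 359 and 295 CPM and Nphs1 at 1015 and 978 CPM, between the level in the named cells and that in podocyte-like cells (1503 and 1448 CPM). Col18a1 was at 1695 and 1592 CPM in the named cells and at 400 and 390 CPM in the Cst12-led cells, slightly under the podocyte-like level. Col1a2 went the other way, with 46.4 and 81.7 CPM in the named cells and 489 and 406 CPM in the Cst12-led cells, above the podocyte-like level in both libraries. Col6a1 was counted in both, at 92.8 and 59.3 CPM and at 117 and 68.2 CPM, and so was Col6a2, at 54.2 and 40.9 CPM and at 66.1 and 32.7 CPM; Col6a3 had no UMI in either. The Cst12-led cluster listed Col6a1 among its 10 leading genes, although no collagen gene entered the clustering. These subsets come from the same cells as the clusters and carry no test.

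**Figure D3:**
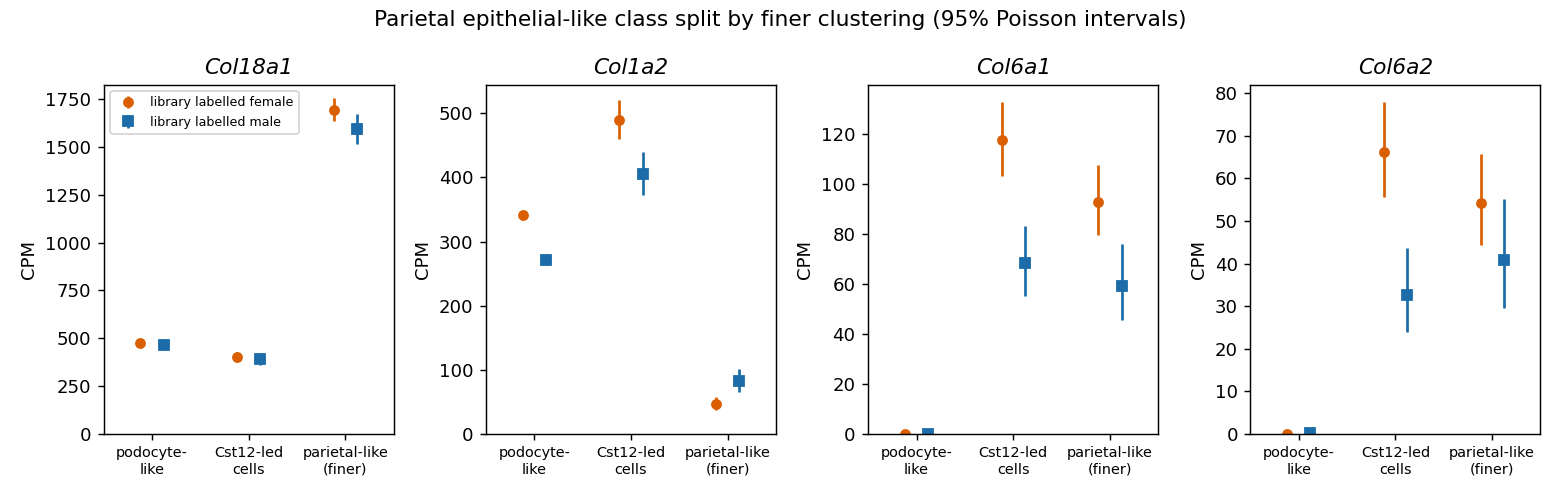
CPM of 4 collagen genes (each panel with its own linear axis from 0) in podocyte-like cells, in the Cst12-led cells and in the cells named parietal epithelial-like at resolution 2.0; circles are the library labelled female, squares the library labelled male, bars 95% Poisson intervals. Col18a1 was at 1695 and 1592 CPM in the named cells, Col1a2 at 489 and 406 CPM in the Cst12-led cells, and Col6a1 and Col6a2 were counted in both sets and hardly in podocyte-like cells.

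Classes were compared with edgeR's quasi-likelihood test on the summed UMIs of each class in each library, with the library as a block, and p-values were adjusted by Benjamini-Hochberg over 13873 genes; they rest on 2 mice, and a call is an adjusted p under 0.05. Of the 38 members 20 passed the filter on low sums and 18 did not, so the counts below are not of all members. A member could pass on the sums of any class, and some passed only through classes where they were high. Col14a1, for example, had no UMI in podocyte-like cells. The counts and medians of the comparisons with podocyte-like cells were therefore partly set by this filter. In a sum, fewer cells with a transcript and less of it per cell cannot be told apart. All 7 classes were fitted together. The spread behind each p-value was therefore estimated over all classes, and not only from the 2 compared. The mesangial-like class enters 2 of the 5 comparisons and so do podocyte-like and parietal epithelial-like cells, so those comparisons share sums.

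Against parietal epithelial-like cells, 15 of the 20 members were lower and 0 higher in podocyte-like cells (none at an unadjusted p under 0.05, and none by DESeq2 either), where 22.9% of all genes tested were lower and 16.0% higher. The median log2 fold change of the members was -5.24 (-5.28 with members that had no UMI in a class set at a bound of 3 counts over the class, and without those at or under 3 counts in both), beside 0.01 for all genes. Col6a1 was lower by a log2 fold change of -9.96 (SE 0.354, edgeR adjusted p = 1.36e-12) and Col6a2 by -9.36 (SE 0.450, adjusted p = 6.17e-11). Col18a1 was lower in both libraries, by -0.86 (SE 0.200, adjusted p = 0.00195). Col1a2 differed by 0.31 (SE 0.170, edgeR adjusted p = 0.163), which was not called; at resolution 2.0, where the Cst12-led cells and several podocyte clusters had lost their class names, its log2 fold change was 2.48 (edgeR adjusted p = 1.04e-05), and over all alternatives its adjusted p lay between 7.57e-06 and 0.481. Col1a2 was also called higher in podocyte-like cells with a mitochondrial limit of 10%, with collagen genes kept in the clustering and without the highest doublet scores. The same held without the filter on low counts and with only these 2 classes in the fit. Its log2 fold changes in these settings lay between 0.30 and 1.26. The others of the 15 lower members were at under 20 CPM in parietal epithelial-like cells.

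Mesangial-like cells had 16 of the 20 members higher and 2 lower than podocyte-like cells, against 24.6% and 23.1% of all genes, so that 18 were called in either direction where 47.7% of all genes were. The median log2 fold change was 6.44 (the same with members at the bound), beside -0.06 for all genes. Col8a1 was higher by 11.35 (SE 0.433, edgeR adjusted p = 4.72e-13), Col6a3 by 10.94 (SE 0.482, adjusted p = 9.99e-12) and Col12a1 by 9.31 (SE 0.346, adjusted p = 9.89e-14). Of the 16, Col6a1 and Col15a1 had no mesangial-like UMI in the library labelled female, against 0.0864 and 0.0648 CPM in podocyte-like cells. Col6a1 lost its call with a mitochondrial limit of 10% (edgeR adjusted p = 0.2755), at resolutions 0.5 and 2.0 and without the block. Col15a1 lost its call without the top 5% of doublet scores (edgeR adjusted p = 0.4335). The 2 that were lower were Col1a2 (-1.30, SE 0.179, adjusted p = 7.22e-06) and Col18a1 (-2.88, SE 0.227, adjusted p = 4.11e-09), the same 2 that were present in podocyte-like cells. The podocyte markers were at 16.3% and 7.47% of their own level in mesangial-like cells, and their part in these 2 levels was not tested.

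Between the 2 stromal classes 5 members were higher in mesangial-like cells (Col6a3, Col5a1, Col26a1, Col12a1 and Col8a1) and 3 lower (Col1a2, Col6a1 and Col18a1), against 7.32% and 7.17% of all genes. The median was 1.25 (0.96 with members at the bound), beside 0.06 for all genes. Col8a1 was higher by a log2 fold change of 2.17 (SE 0.417, edgeR adjusted p = 0.00131) and Col6a3 by 1.94 (SE 0.467, adjusted p = 0.00889). Col18a1 was lower by -3.36 (SE 0.238, adjusted p = 1.12e-08) and Col1a2 by -1.14 (SE 0.204, adjusted p = 0.000606). Col12a1 was called higher at 1.22 (SE 0.324, adjusted p = 0.0144), but without the library block its adjusted p was 0.0566, and the direction changed when cells were grouped or filtered differently: at resolution 2.0, where the 14 cells described above had changed class, it was -0.97 (edgeR adjusted p = 0.0302) and with a mitochondrial limit of 50% it was -1.03 (edgeR adjusted p = 0.00294), in a range of adjusted p from 2.26e-11 to 0.259. With DESeq2's Wald test 1 member was higher and 3 lower; Col6a3, Col8a1, Col5a1 and Col12a1 kept their sign and lost the call (DESeq2 adjusted p = 0.692, 0.125, 0.236 and 0.259). Col5a2 (0.96, SE 0.338, adjusted p = 0.0697) and Col3a1 (-0.54, SE 0.466, adjusted p = 0.561) were not called. Col3a1 was called lower at resolution 2.0 (-2.05, edgeR adjusted p = 0.00167) and with a mitochondrial limit of 50% (-2.26, edgeR adjusted p = 0.000241), and Col5a2 was called higher under 6 alternatives, with edgeR adjusted p from 0.00224 to 0.0499.

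Between glomerular and arterial endothelial-like cells 2 members were higher (Col15a1 and Col1a2) and 1 lower (Col16a1), against 6.26% and 4.30% of all genes. The median was 2.77 (0.41 with members at the bound, 7 members being left out), beside 0.05 for all genes. Col15a1 was higher by a log2 fold change of 5.34 (SE 0.438, edgeR adjusted p = 4.55e-07), and over the alternatives it lay between 4.27 and 5.76. Col1a2 was higher by 2.72 (SE 0.399, adjusted p = 0.000132), but with the top 5% of doublet scores removed it was -2.11 (adjusted p = 0.178) and with a mitochondrial limit of 50% -1.73 (adjusted p = 0.00381). Col18a1 did not pass the test (0.04, SE 0.233, adjusted p = 0.988), but was called lower with the mitochondrial limit of 50% (-0.91, edgeR adjusted p = 0.00307). Col5a2 did not pass it (-0.52, SE 0.331, adjusted p = 0.431). Col8a1 was at -0.46 (SE 0.711, adjusted p = 0.805); without the 10 endothelial-like cells that held 2 or more Pdgfrb UMIs, an alternative added after the data were seen, it was called lower in glomerular cells at -4.68 (edgeR adjusted p = 0.00248), and with the top 5% of doublet scores removed it was called lower at -3.00 (edgeR adjusted p = 0.0144).

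Between thick ascending limb-like and parietal epithelial-like cells, 1 member was higher and 7 lower, against 15.7% and 14.3% of all genes. The median was -2.02 (-1.96 with members at the bound), beside -0.00031 for all genes. The higher one was Col5a2, at a log2 fold change of 5.32 (SE 0.249, edgeR adjusted p = 1.92e-11), between 4.88 and 5.52 over the alternatives. Col6a1 was lower by -4.09 (SE 0.391, adjusted p = 6.01e-07), Col6a2 by -3.56 (SE 0.489, adjusted p = 3.02e-05) and Col18a1 by -1.92 (SE 0.214, adjusted p = 1.41e-06). Col1a2 was called lower at -1.40 (SE 0.194, adjusted p = 1.88e-05), and at resolution 2.0, without the Cst12-led cells and the 30 distal convoluted tubule-like cells, it was 0.86 (adjusted p = 0.113).

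**Figure D4:**
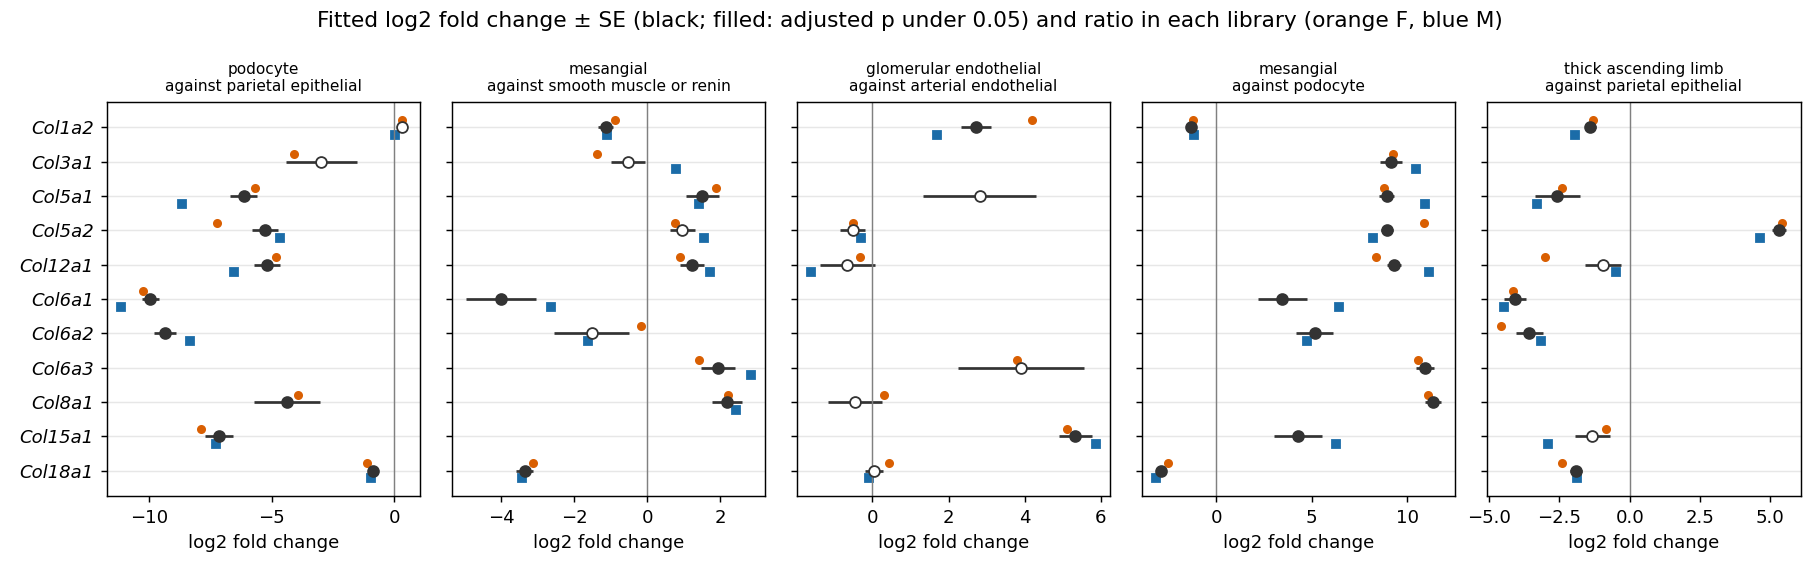
Fitted log2 fold change of the present members in each of the 5 class comparisons (black circles with SE, filled where the edgeR adjusted p was under 0.05) and the log2 ratio of CPM in each library where both sums had UMIs (orange circles, library labelled female; blue squares, library labelled male), with a separate axis per panel and estimates whose SE was over 3 left out. Col6a1 and Col6a2 lay far to the left in podocyte-like against parietal epithelial-like cells (-9.96 and -9.36), and Col5a2 lay far to the right in thick ascending limb-like against parietal epithelial-like cells (5.32).

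A list of 57 genes that modify, fold, export, trim, cross-link, bind or break down collagen was read in the same fits; 46 of them were tested. In podocyte-like against parietal epithelial-like cells 12 were higher and 22 lower, with a median log2 fold change of -0.51. The counts were 23 and 13 in mesangial-like against podocyte-like cells (median 0.37), 11 and 5 in mesangial-like against smooth muscle or renin-like cells (median 0.20), 9 and 3 in glomerular against arterial endothelial-like cells (median 0.47), and 2 and 28 in thick ascending limb-like against parietal epithelial-like cells (median -1.11). The shares and medians of all genes are those given for each comparison above. The modifying enzymes did not move as a block: of 14 tested prolyl and lysyl modifiers, podocyte-like cells had 7 higher than parietal epithelial-like cells (Colgalt1, Colgalt2, P3h1, P3h2, Plod1, Plod2 and P4hb) and 3 lower. All 3 tested fibril-binding proteoglycans (Fmod, Bgn and Dcn) were higher in mesangial-like than in podocyte-like cells. Bgn, biglycan, was at 1335 and 1218 CPM in mesangial-like and 3.56 and 2.82 CPM in podocyte-like cells (log2 fold change 8.57, SE 0.472, adjusted p = 2.76e-11), and the fibril receptor Ddr2 at 76.6 and 83.7 CPM against 0.0216 and 0.0282 CPM (10.78, SE 0.436, adjusted p = 1.04e-12). Fkbp10, a folding factor of procollagen, was at 69.8 and 66.4 CPM in mesangial-like against 0.281 and 0.169 CPM in podocyte-like cells.

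Of 5 tested cross-linking enzymes, 4 were lower and 1 higher in podocyte-like than in parietal epithelial-like cells, and 3 were lower in mesangial-like than in smooth muscle or renin-like cells. Lox, lysyl oxidase, was at 189 and 162 CPM in smooth muscle or renin-like cells and 3.77 and 1.85 CPM in mesangial-like cells (log2 fold change -5.96 for mesangial-like against smooth muscle or renin-like, SE 0.322, adjusted p = 3.60e-10). It was at 67.2 and 84.2 CPM in parietal epithelial-like and 2.53 and 2.73 CPM in podocyte-like cells (-4.67, SE 0.181, adjusted p = 4.16e-13). Tgm2, a transglutaminase, was at 112 and 111 CPM in parietal epithelial-like against 1.53 and 1.89 CPM in podocyte-like cells, and at 201 and 206 CPM in arterial against 29.2 and 67.7 CPM in glomerular endothelial-like cells. Loxl1 was at 131 and 122 CPM in parietal epithelial-like and 11.8 and 9.88 CPM in thick ascending limb-like cells. Mmp2, a gelatin-degrading protease, was at 328 and 271 CPM in mesangial-like and 20.5 and 15.2 CPM in smooth muscle or renin-like cells, and Mrc2, an uptake receptor for collagen, at 90.9 and 108 CPM against 28.2 and 17.1 CPM. In glomerular endothelial-like cells the propeptide protease enhancer Pcolce was at 99.3 and 78.1 CPM against 11.3 and 12.8 CPM in arterial endothelial-like cells, and the prolyl 3-hydroxylase P3h2 at 78.3 and 103 CPM against 8.49 and 16.0 CPM.

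The 2 libraries were also set side by side within each class, with no test, since each is 1 mouse; sex, mouse and library cannot be told apart. Of 32 member and class entries with at least 30 UMIs over both libraries and 20 CPM in 1 of them, 12 differed by more than 1.5-fold with a 95% binomial interval that left out 1, covering counting error only; 8 were higher and 4 lower in the library labelled female. Over all genes at these levels the higher and lower shares were 2.39% and 1.52% in parietal epithelial-like, 5.16% and 4.69% in mesangial-like, 4.17% and 3.75% in smooth muscle or renin-like, 5.35% and 3.53% in glomerular endothelial-like, 2.67% and 4.52% in arterial endothelial-like, 4.19% and 4.72% in thick ascending limb-like and 1.14% and 0.454% in podocyte-like cells. No podocyte-like entry was among the 12: Col1a2 was 1.26-fold (1.22 to 1.29) and Col18a1 1.02-fold (1.0025 to 1.04) as high in the library labelled female. In parietal epithelial-like cells Col6a1 was 1.64-fold (1.36 to 1.98) and Col6a2 1.67-fold (1.31 to 2.16) higher there, and over the alternatives the log2 ratios stayed between 0.53 and 0.99 and between 0.41 and 1.32. In thick ascending limb-like cells Col5a2 was 1.95-fold (1.65 to 2.31) and Col1a2 1.60-fold (1.24 to 2.06) higher; with a mitochondrial limit of 50%, Col5a2 was at 213 and 246 CPM, the other way round.

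Col13a1 had the widest ratio of the 32. It was counted in 2 of 43 smooth muscle or renin-like cells of the library labelled female (2 UMIs, 5.12 CPM) and in 17 of 62 of the library labelled male (37 UMIs, 70.5 CPM), with no cell above 5 UMIs; the ratio was 0.0727 (0.00849 to 0.282). Over the alternatives its log2 ratio stayed between -3.94 and -3.17. In the library labelled male the 17 cells with Col13a1 had Ren1, the renin gene of juxtaglomerular cells, at 107896 CPM and the 45 cells without it had 20202 CPM, with Acta2 at 4734 and 6092 CPM. In the library labelled female the 2 cells with Col13a1 had Ren1 at 31.4 CPM and the 41 cells without it 31292 CPM. Ren1 in the whole class was at 28746 and 49620 CPM; its part in the Col13a1 ratio was not tested.

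Among the entries lower in the library labelled female were also mesangial-like Col12a1, with a ratio of 0.407 (0.358 to 0.461), and mesangial-like Col1a1, with 9 and 39 UMIs and a ratio of 0.142 (0.0603 to 0.297). In the mesangial-like cells that kept their class at resolution 2.0, Col12a1 was at 142 and 235 CPM, and Col1a1 had 2 and 10 UMIs, the latter all in 1 cell. The last was arterial endothelial-like Col18a1, with a ratio of 0.588 (0.451 to 0.763). Higher in the library labelled female were mesangial-like Col18a1, 1.61-fold (1.25 to 2.09), where the podocyte markers stood at 16.3% and 7.47% of their own level, and glomerular endothelial-like Col1a2, 1.65-fold (1.16 to 2.36), from 132 and 45 UMIs. Col3a1 in smooth muscle or renin-like cells was 3.03-fold higher (1.48 to 6.55) from 27 and 12 UMIs, and Col6a3 there 2.32-fold (1.05 to 5.40) from 19 and 11 UMIs; at resolution 2.0 Col3a1 was at 68.0 and 87.8 CPM, the other way round.

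**Figure D5:**
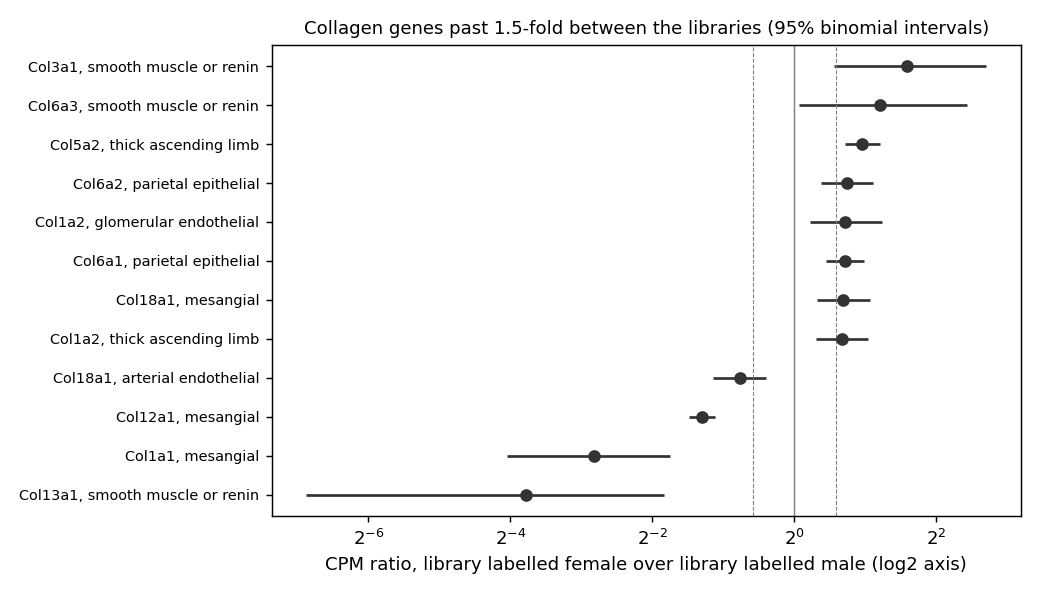
CPM in the library labelled female divided by CPM in the other library (log2 axis) for the 12 member and class entries past 1.5-fold, with 95% binomial intervals; dashed lines mark 1.5-fold either way. Col13a1 in smooth muscle or renin-like cells lies farthest to the left, at 0.0727, and Col3a1 in the same class farthest to the right, at 3.03.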

How the data were processed

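The authors deposited 1 matrix per library, holding for each barcode and gene an unnormalized UMI count. Cell Ranger 6.1.2, STAR 2.7.5a and mm10 are listed per the submitters' processing notes; how cells were called and which gene annotation and strand were used is not stated in the labels. Barcodes with at least 500 genes and at most 20% mitochondrial UMIs were kept. Counts were scaled to 10000 per cell, logged and clustered without collagen genes (scanpy 1.11.5; 2000 variable genes, 30 components, 20 neighbours, Leiden resolution 1, seed 0). Clusters were named from at least 3 of their listed markers. Scrublet, with 4% doublets expected, called 1 and 1 cells and so had not worked; removing the 5% highest scores was an alternative. Genes with at least 10 UMIs in at least 2 of the class sums were tested with edgeR 4.0.16 (TMM, quasi-likelihood, class and library terms). The SE is the absolute log2 fold change over the root of F. DESeq2 1.42.0 was an alternative. The script was tested on simulated data. Intervals are 95% Poisson (CPM), exact binomial (shares, ratios), for counting error only; the floor for 0 is 3 counts. RefSeq upstream windows matched 30 of 38 members; other members' windows were not used here.

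The members, marker lists, collagen machinery list and cluster naming rule were chosen with earlier results of these data known. All members at 20 CPM or more in both libraries in a class were described, with library differences past 1.5-fold, and up to 3 of the machinery genes per comparison with the largest changes among called genes at 50 CPM or more. Alternatives were other limits on mitochondrial share, genes and CPM, other resolutions, collagen genes kept in the clustering, doublet removal, other normalisation, filter, test and sample sets, thinning, and leaving out each library.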

Additional observations from a re-analysis of the deposited data

Results flagged for a closer look

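Collagen genes were also counted in cells that no comparison used, and these are given because the signal lies outside the 7 compared classes. Proximal tubule-like cells (10 and 22) had 1 member at 20 CPM or more in both libraries, Col18a1, at 143 and 92.7 CPM, while the summed podocyte markers were at 2.24% and 2.01% of their podocyte-like level there. The leukocyte-led cluster (20 and 58 cells) had 2 such members, Col1a2 at 108 and 36.1 CPM and Col18a1 at 98.9 and 30.1 CPM, with podocyte markers at 16.1% and 5.15%. The unnamed haemoglobin-led cluster with podocyte markers (419 and 495 cells) also had 2, Col1a2 at 284 and 210 CPM and Col18a1 at 492 and 479 CPM, the same pair as podocyte-like cells. The cell cycle-led cluster (23 and 11 cells) had 8, among them Col15a1 at 120 and 63.6 CPM beside Col6a3 at 54.9 and 117 CPM and Col8a1 at 24.0 and 138 CPM; the mesangial markers stood at 32.0% and 56.1% of their mesangial-like level in it.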

How the results depend on the processing

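Of the members' fold changes under the alternatives, 723 were counted as the same, 29 gained a call, 13 lost one, 41 values without a test moved and 6 reversed. The 723 include changes of sign between values that were not called. Col5a1 between the endothelial classes, for example, ran from -5.47 to 3.69, and Col6a3 in podocyte-like against parietal epithelial-like cells from -1.03 to 2.18. The reversals listed below leave such changes out. The calls for Col6a1 and Col6a2 in podocyte-like against parietal epithelial-like cells, Col15a1 between the endothelial classes and Col5a2 in the tubule class kept their direction under every alternative that gave a test. Counts that moved by more than 1.5 times were, of called members, 4 in mesangial-like against smooth muscle or renin-like cells with DESeq2 (8 with edgeR), 1 between the endothelial classes at resolution 2.0 (3 before), and 13 in thick ascending limb-like against parietal epithelial-like cells both with a mitochondrial limit of 50% and without the highest doublet scores (8 before). Of present members they were 7 in parietal epithelial-like and 4 in arterial endothelial-like cells at 10 CPM, and 3 in smooth muscle or renin-like, 2 in glomerular endothelial-like and 1 in arterial endothelial-like cells at 50 CPM. Of library differences 7 remained in number with thinned cells and 5 at 2-fold. Signs reversed for Col12a1 between the stromal classes (-1.03 with a mitochondrial limit of 50% and -0.97 at resolution 2.0), Col1a2 between the endothelial classes (-1.73 with the 50% limit and -2.11 without the highest doublet scores), Col18a1 there (-0.91 with the 50% limit), Col1a2 in the tubule comparison (0.86 at resolution 2.0), and the log2 library ratios of Col3a1 in smooth muscle or renin-like cells (-0.54 with the 50% limit, -0.37 at resolution 2.0) and Col5a2 in thick ascending limb-like cells (-0.21 with the 50% limit). Each of these settings grouped the cells anew or used another set of cells, and the cause of the reversals was not tested. The libraries pair the class sums, since each is 1 mouse. Without that replicate block 15, 7, 3, 17 and 8 members were called in the 5 comparisons (15, 8, 3, 18 and 8 with it), the 2 lost being Col12a1 between the stromal classes (1.24, edgeR adjusted p = 0.0566) and Col6a1 in mesangial-like against podocyte-like cells (3.50, edgeR adjusted p = 0.0548). Leaving out either library left class comparisons with no residual spread, so these gave values without a test; the numbers of present members then lay between 2 and 9. No thick ascending limb-like class was found with a mitochondrial limit of 10% and no arterial endothelial-like class at resolution 0.5, so these gave no value. The depth of the smallest class, 390593 and 525132 UMIs in smooth muscle or renin-like cells, limits what could be detected there.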
